A study of Mus musculus with 6 samples.

Results

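The nuclear-encoded genes of the mitochondrial respiratory chain and of the ATP synthase were followed in activated CD4 T cells with and without miR-155. The set was taken by name: every probe set whose only gene symbol begins with Nduf, Uqcr, Cox4 to Cox8 or Atp5, or is Sdha, Sdhb, Sdhc or Sdhd. This gave 156 of the 22690 probe sets on the array, belonging to 84 of the 12394 genes with a symbol of their own. The rule itself uses names alone, but the set was proposed with earlier results of these data known. All 84 genes were bright enough to be among the 9295 genes tested.

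The cells came from spleen and lymph nodes of C57BL/6 mice, either miR-155 KO (3 arrays) or WT (3 arrays). Beads against CD4 were used to isolate them, and in both genotypes they were then activated in culture for 3 days. The medium held CD3 and CD28 antibodies (1 µg/mL) and IL-2 (20 U/mL), a T cell growth factor. Mir155hg, the host transcript of miR-155, read 3.51, 3.89 and 4.45 in KO for replicates 1, 2 and 3 and 7.69, 6.59 and 8.21 in WT, so it was low in every library labelled KO. The labels give neither the age nor the sex of the mice, nor which cells of the culture remained at harvest, and they do not say how the KO allele was made beyond naming an earlier published strain. The question behind the comparison was how transcript levels differ when miR-155 is absent. The mature strand that is missing from KO cells, mmu-miR-155-5p, is shown because its seed (bases 2 to 8, in capitals) is what pairs with target transcripts. Its sequence, 5′ to 3′, is that of RefSeq at chr16:84714143-84714165 on the plus strand of GRCm38.p6. Seed matches in the transcripts of these 84 genes were not tested.

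mmu-miR-155-5p: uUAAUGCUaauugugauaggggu

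The respiratory chain moves electrons from NADH (complex I) and succinate (complex II) through ubiquinone to complex III, then through cytochrome c to complex IV, where oxygen is reduced. Complexes I, III and IV pump protons, and the ATP synthase uses the gradient to make ATP. Most subunits are encoded in the nucleus and imported, and T cells enlarge this machinery when they are activated. GABP (an ETS factor also called NRF-2), NRF1 and YY1 are transcription factors known for binding the promoters of many of these genes.

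Of the 84 genes, 68 had a lower mean in KO than in WT and 16 a higher one, with a median KO minus WT difference of -0.17 on the log2 scale, or 1.13-fold lower. Over all 9295 genes the KO mean was below the WT mean in 50.8% and the median difference was -0.00354. No gene of the set passed limma's test with Benjamini-Hochberg adjustment over all genes at 0.05 (0 of 84), and neither did any other gene (0 of 9295, or 0%). At an unadjusted limma p under 0.05 there were 6 of the 84, 5 lower and 1 higher in KO. Over all genes 7.43% lay under that p, 3.86% on the lower and 3.57% on the higher side, so the share in the set, 6 of 84 (7.14%), was close to that across the array in this fit; under other settings it lay above or below it, as described with the other settings. The groups did not overlap in 24 of the 84 genes (28.6%), against 12.8% of all genes. All 3 KO arrays lay below all 3 WT arrays in 23 of the 84 genes (27.4%), against 6.92% of all genes, and all 3 lay above in 1 (1.19%), against 5.86%. An exact two-sided permutation test of 3 against 3 arrays cannot give a p below 0.1, so none of these genes can pass it alone. RNA came from whole cultures, so fewer cells of a type and less RNA per cell cannot be told apart.

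The median standard error (SE) of a difference in the set was 0.14 log2 units, against 0.17 over all genes. The 95% interval spanned 0 in 78 genes, and in 36 it lay wholly between -0.5 and 0.5. Only 4 genes had a KO mean lower by 0.5 or more, namely Ndufaf4, Ndufa5, Ndufs5 and Ndufab1, all of them complex I subunits or assembly factors. Just short of this cut lay Ndufa12 of complex I (-0.499) and Ndufa4 of complex IV (-0.496).

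**Figure D1:**
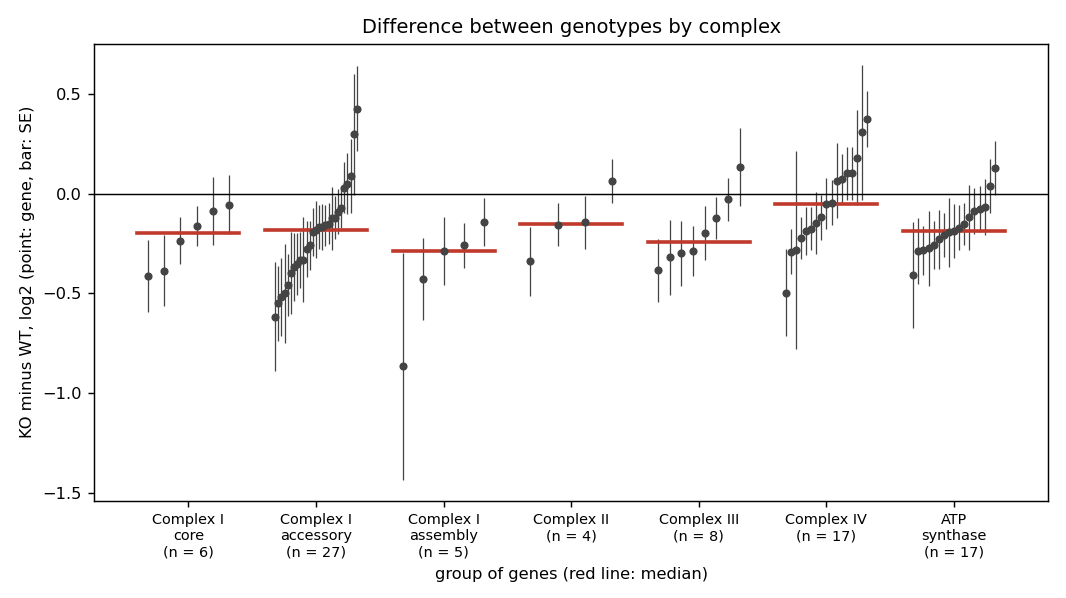
KO minus WT difference on the log2 scale for each of the 84 genes (points, bars are the SE from limma), sorted within each complex, with the median of each group as a red line. The median lies below 0 in all 7 groups, from -0.29 for complex I assembly factors to -0.05 for complex IV.

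The arrays did not contribute equally. A score was taken per array as the mean, over the 84 genes, of the value minus that gene's mean on all 6 arrays. The KO arrays scored -0.15, -0.01 and -0.10 for replicates 1, 2 and 3, and the WT arrays 0.11, 0.12 and 0.02. All KO scores lay below all WT scores, with KO replicate 2 and WT replicate 3 next to each other. Taken by group, the scores of the 6 core and the 27 accessory complex I genes did not overlap between genotypes, and those of the other 5 groups did. In complexes II and III, the complex I assembly factors and the ATP synthase, KO replicate 2 scored above WT replicate 3 (by group 0.012 and -0.062, -0.0030 and -0.0033, 0.039 and -0.15, 0.0067 and -0.0070). In complex IV, KO replicate 3 (0.026) scored above WT replicate 1 (-0.066). Over the whole set the scores averaged -0.087 ± 0.072 in KO and 0.087 ± 0.055 in WT (SD, n = 3). KO replicate 1 was the lowest of the 6 arrays in 39 genes and KO replicate 3 in 19, while WT replicate 1 was the highest in 38 and WT replicate 2 in 20. Leaving out any 1 array kept the median between -0.23 (without WT replicate 3) and -0.15 (without WT replicate 1), and 61 of the 68 lower genes stayed lower each time. The count at an unadjusted p under 0.05 rested on single arrays. It was 0 of 84 without KO replicate 1 or KO replicate 3, 1 without WT replicate 1 or WT replicate 2, 18 without KO replicate 2 and 20 without WT replicate 3. The share over all genes in these settings, in the same order, was 4.93%, 3.15%, 2.97%, 3.01%, 16.6% and 14.4%.

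**Figure D2:**
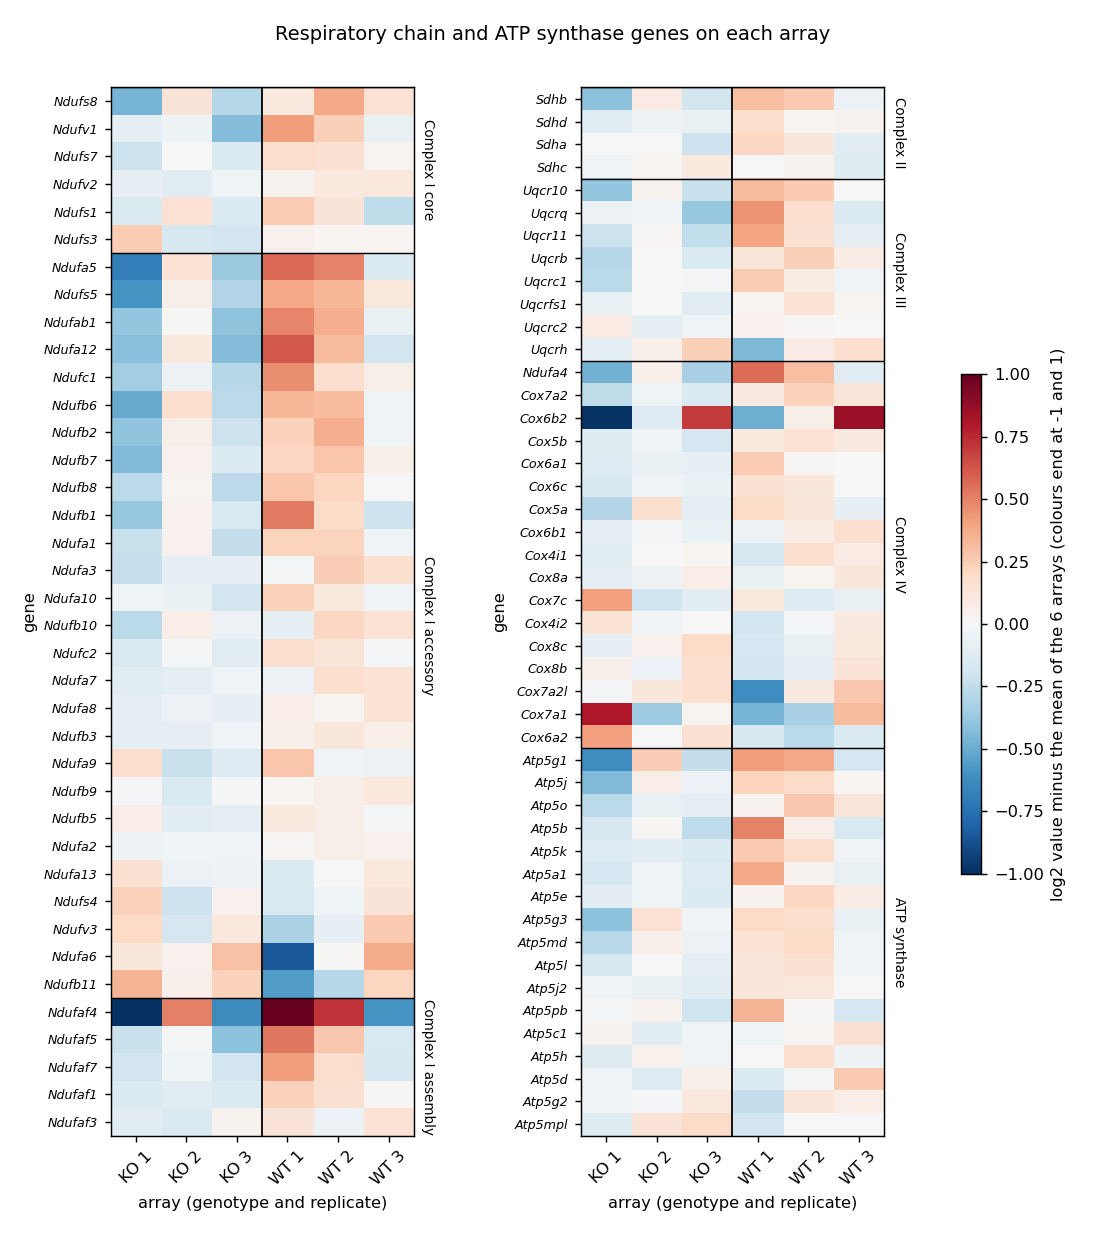
Value of each of the 84 genes on each array, as the log2 value minus the mean of the 6 arrays, grouped by complex and sorted by the KO minus WT difference. Blue is below and red above the mean, with colours ending at -1 and 1. KO replicate 1 is the lowest column in 39 genes and WT replicate 1 the highest in 38, and WT replicate 1 is the lowest column in 12 of the 16 genes higher in KO.

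Some features of the arrays run with these scores. The first principal component of all tested genes (61.9% of the variance) was negative for KO replicates 1 (-41.3) and 3 (-14.6) and for WT replicate 3 (-7.36), and positive for KO replicate 2 (13.4) and for WT replicates 1 (26.1) and 2 (23.8). On the first component of the 84 genes alone (72.0% of their variance) the genotypes overlapped. The KO arrays lay at -2.46, 0.51 and -1.65 for replicates 1, 2 and 3, and the WT arrays at 2.76, 1.66 and -0.82. Cell cycle genes, all 21 lower in KO, had a median difference of -0.64. They had scores of -0.88, 0.07 and -0.08 across the KO arrays and 0.36, 0.30 and 0.24 across the WT arrays. All KO scores lay below all WT scores there too, and KO replicate 1 was lowest there as well. In 8 of the 21 genes all KO arrays lay below all WT arrays, against 6.92% of all genes. The part of cell cycle genes in the difference of the respiratory chain genes was not tested. Without KO replicate 1, 71 of 84 genes were lower in KO and the median was -0.15. The spread between the 3′ and 5′ control probe sets, a sign of RNA quality, ran from -0.05 to -0.02 log2 units for Gapdh and from 0.28 to 0.37 for beta-actin over all 6 arrays, and KO replicate 1 was at -0.02 and 0.32. Xist was bright and Y-linked Eif2s3y dim on both replicate 1 arrays, the reverse held on both replicate 2 arrays, and both were bright on both replicate 3 arrays, although the series description assigns each array to 1 mouse. Without both replicate 3 arrays the median was -0.21 and 68 genes were lower, and without both replicate 1 arrays it was -0.14 and 74 were lower.

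Markers were used to check the cells. The T cell genes Cd3d, Cd3g, Cd3e and Cd5 averaged 13.4, 12.5, 10.5 and 11.9 in KO and 13.1, 12.3, 10.3 and 11.9 in WT. Of 7 CD4 T cell markers on the array 6 were higher in KO, and the 7 summed on the log2 scale to 76.8 to 78.6 in KO and 74.3 to 77.4 in WT. Cd4 itself differed by 0.05 and Thy1 by 0.14. Zbtb7b, at 8.29, 8.0 and 8.39 in KO and 7.36, 7.94 and 7.92 in WT, differed by 0.48. It was the 1 gene of this list higher without overlap, where 5.86% of all genes were. Of 6 B cell markers on the array 5 were tested, and the 6 summed to 36.5 to 39.9 in KO and 35.6 to 40.7 in WT. The 5 tested B cell markers differed in both directions, Ms4a1 by -0.70, Cd22 by -0.05, Cd79a by 0.08, Cd79b by 0.15 and Blnk by 0.27. The defining B cell factor Pax5 was dimmer than every gene tested (means of at least 4.72), as were all 6 neutrophil markers on the array, the NK cell genes Ncr1 and Klra1 and the myeloid genes Cd14, Lyz2, Itgam and Fcgr1. The 3 tested macrophage markers were all higher in KO (Cd68 by 0.63, Adgre1 by 0.29 and Csf1r by 0.16), as was the 1 tested NK marker, Klrd1 (0.36). Cd68 was highest on KO replicate 1 (7.10) and lowest on WT replicate 1 (5.50), the arrays that were most often lowest and highest in the respiratory chain genes. The B cell marker Ms4a1, picked after its values were seen, read 6.39, 7.85 and 6.45 in KO and 8.02, 8.22 and 6.55 in WT. It was thus lowest on KO replicate 1, whereas the other tested B cell markers were lowest on WT replicate 3. CD8 T cell markers (4 on the array) summed to 27.5 to 28.3 in KO and 27.6 to 28.1 in WT, NK markers (3) to 13.3 to 13.6 and 12.6 to 13.7, macrophage and monocyte markers (7) to 33.1 to 35.0 and 31.8 to 34.1, neutrophil markers (6) to 24.5 to 25.1 and 24.6 to 24.7, and erythroid markers (3) to 14.4 to 14.9 and 14.0 to 14.7. Such sums can hide opposite differences: of the 4 CD8 T cell markers, Crtam differed by -0.49, Cd8a by 0.02, Cd8b1 by 0.10 and Runx3 by 0.54. The marker values are probe set levels without detection calls, so none can be called 0, and the part of other cell types was not tested.

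Complex I, the NADH dehydrogenase, is the largest group, with 33 subunit genes and 5 assembly factors among the 84. All 6 core subunit genes were lower in KO, with a median of -0.20. Most of these subunits carry the flavin or the iron-sulphur clusters along which electrons pass. Ndufs8, which holds iron-sulphur clusters close to the ubiquinone site, read 11.11, 11.70 and 11.29 across the KO arrays and 11.67, 11.95 and 11.72 across the WT arrays. KO replicate 2 lay just above WT replicate 1, so the groups overlapped, and the difference was -0.41 ± 0.18 (SE). All 6 Ndufs8 probe sets were lower in KO, by -0.41 to -0.18. Ndufv1, the subunit that binds NADH and the flavin, differed by -0.39 ± 0.18, with KO replicate 2 (10.38) just above WT replicate 3 (10.36) and 3 probe sets between -0.40 and -0.32. Ndufs7, which hands electrons to ubiquinone, differed by -0.24 and the groups did not overlap, at 10.59, 10.81 and 10.66 in KO and 10.98, 10.96 and 10.83 in WT. Ndufv2 also did not overlap (-0.16), while Ndufs1 and Ndufs3 differed by -0.09 and -0.06, within their SEs of 0.17 and 0.15.

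The accessory subunits of complex I surround the core and stabilise it. Of 27 genes 22 were lower in KO, with a median of -0.18, and 9 of them had all KO arrays below all WT arrays, where 6.92% of all genes did. Ndufs5, a small subunit with paired cysteines, read 9.28, 9.93 and 9.58 across the KO arrays and 10.26, 10.20 and 9.98 across the WT arrays. The groups did not overlap; KO replicate 2 and WT replicate 3 came nearest to each other. Its difference was -0.55 ± 0.19 (SE), or 1.46-fold lower (limma adjusted p = 0.631). Ndufc1, a short membrane-arm subunit, measured 10.74, 11.03 and 10.80 in KO and 11.55, 11.25 and 11.14 in WT, also without overlap. Its means were 10.86 ± 0.16 and 11.31 ± 0.21 (SD, n = 3), a difference of -0.46 (limma adjusted p = 0.631), and its weaker probe set differed by -0.37 without overlap. Ndufab1, the mitochondrial acyl carrier protein, which serves fatty acid and lipoate synthesis as well as complex I, measured 11.06, 11.46 and 11.05 in KO and 11.94, 11.81 and 11.38 in WT. KO replicate 2 lay above WT replicate 3 there. The difference was -0.52 ± 0.20 (limma adjusted p = 0.631). Of its other 2 probe sets, 1 differed by -0.44 and 1 by 0.15.

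A few accessory genes outside the naming rule were picked after their values were seen, Ndufa5 and Ndufb11 because they set the range. Ndufa5 had the lowest difference of the accessory subunits, -0.62 ± 0.27, with KO replicate 2 (9.54) above WT replicate 3 (9.27). The X-linked gene Ndufb11 had the highest difference of all 84 genes, 0.42 ± 0.21. It read 13.10, 12.81 and 12.99 across the KO arrays and 12.20, 12.47 and 12.97 across the WT arrays, and its 3 probe sets differed by 0.40 to 0.43. WT replicate 3 lay within the KO values and the other WT arrays below them. Ndufa6 measured 11.72, 11.65 and 11.90 in KO and 10.77, 11.62 and 11.98 in WT. Its difference of 0.30 rested on WT replicate 1 and was -0.049 without it. Of the 16 genes higher in KO, 12 had WT replicate 1 as their lowest array, whereas of the 68 lower genes 38 had it as their highest. All KO arrays lay above all WT arrays in 1 of the 16, and 7 of them stayed higher whichever array was left out.

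**Figure D3:**
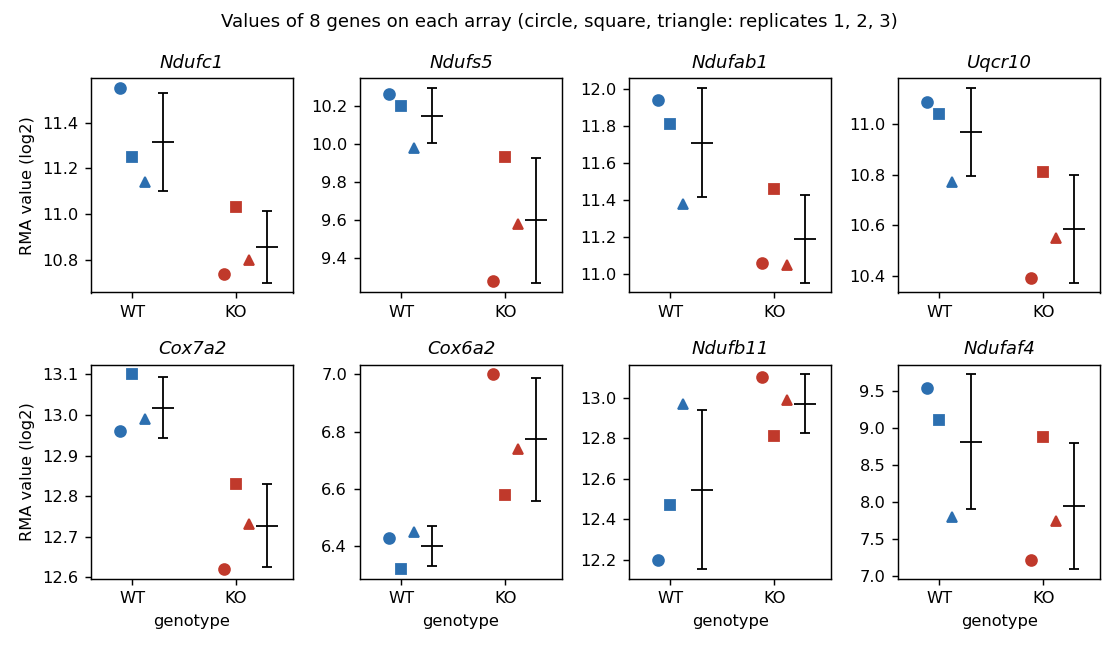
Log2 values of 8 genes on each array (circle, square and triangle for replicates 1, 2 and 3; WT blue, KO red), with the mean and SD (n = 3) in black beside each group; the vertical axes differ and do not start at 0. Ndufc1, Ndufs5 and Cox7a2 do not overlap between genotypes and lie lower in KO, Cox6a2 lies higher without overlap, and in Ndufab1, Uqcr10 and Ndufaf4 the KO square lies above the WT triangle.

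The assembly factors of complex I, which build the enzyme and then leave it, were all lower in KO (5 of 5, median -0.29). Ndufaf1, which acts on the membrane arm, measured 8.58, 8.61 and 8.57 in KO and 8.95, 8.87 and 8.73 in WT. The KO arrays lay close together and below all WT arrays, a difference of -0.26 ± 0.11 (SE). Ndufaf5 and Ndufaf7, which modify core subunits, differed by -0.43 and -0.29 with overlapping groups. Ndufaf4, named after its values were seen, had the largest range of the whole set, 2.32 log2 units. It read 7.22, 8.88 and 7.74 across the KO arrays and 9.54, 9.10 and 7.79 across the WT arrays, so KO replicate 2 stood with WT replicates 1 and 2, and WT replicate 3 with the other KO arrays. The difference was -0.86 ± 0.57, and a weaker probe set gave -0.92.

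Complex II, succinate dehydrogenase, works in the citric acid cycle as well as in the chain. Its 4 genes gave 3 lower values and 1 higher. Sdhb, the iron-sulphur subunit, measured 10.69, 11.18 and 10.91 in KO and 11.40, 11.36 and 11.04 in WT, a difference of -0.34 ± 0.17 (SE) with KO replicate 2 above WT replicate 3. The membrane anchor gene Sdhd measured 10.43, 10.48 and 10.46 in KO and 10.71, 10.55 and 10.57 in WT, without overlap but by only -0.16. The flavin subunit gene Sdha differed by -0.14 ± 0.13, with a 95% interval from -0.46 to 0.17. The other anchor gene, Sdhc, differed by 0.06 ± 0.11, and its probe sets disagreed in sign (0.06 and -0.07).

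Complex III, which passes electrons from ubiquinol to cytochrome c, had 7 of 8 genes lower in KO and a median of -0.24. Uqcr10, a small subunit, measured 10.39, 10.81 and 10.55 in KO and 11.09, 11.04 and 10.77 in WT. The groups met at KO replicate 2 and WT replicate 3, and the difference was -0.38 ± 0.16 (SE; limma adjusted p = 0.631), with 3 probe sets between -0.47 and -0.13. Uqcrb, which takes part in ubiquinone binding, measured 12.94, 13.22 and 13.08 in KO and 13.35, 13.46 and 13.30 in WT, a difference of -0.29 without overlap. Uqcr11 differed by -0.30 with overlap. The Rieske iron-sulphur protein gene Uqcrfs1 did not overlap but differed by only -0.12, the core protein genes Uqcrc1 and Uqcrc2 by -0.20 and -0.03, and the hinge protein gene Uqcrh by 0.13 (-0.060 without WT replicate 1). These last 4 genes were chosen after their values were seen.

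Complex IV, cytochrome c oxidase, was the least one-sided, with 10 of 17 genes lower and a median of -0.05. This count includes the low-reading tissue-restricted forms described below. Cox7a2, the widely expressed form of subunit VIIa, read 12.62, 12.83 and 12.73 across the KO arrays and 12.96, 13.10 and 12.99 across the WT arrays. The groups did not overlap, and the difference was -0.29 ± 0.11 (SE), or 1.22-fold (limma adjusted p = 0.631). Ndufa4, once counted with complex I and now known as a complex IV subunit, measured 10.69, 11.21 and 10.84 in KO and 11.72, 11.46 and 11.05 in WT, a difference of -0.50 ± 0.22 with overlap. Cox6a1, the widely expressed form of subunit VIa, differed by -0.19 without overlap, at 13.44, 13.50 and 13.48 in KO and 13.82, 13.58 and 13.57 in WT. The widely expressed genes Cox4i1, Cox6b1 and Cox8a differed by -0.05, -0.12 and -0.05, each within or close to its SE of 0.13, 0.11 and 0.11.

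Several complex IV subunits have forms known mainly from muscle, lung or testis. Cox6a2, the heart and muscle form of VIa, was the 1 gene of the set with all KO arrays above all WT arrays. It measured 7.0, 6.58 and 6.74 in KO and 6.43, 6.32 and 6.45 in WT, a difference of 0.37 ± 0.14 (SE; limma adjusted p = 0.631). Without KO replicate 1, its highest array, the difference was 0.26. The muscle form Cox7a1 reached 6.89 on KO replicate 1 against 5.63 to 6.41 elsewhere, and its difference of 0.31 was -0.015 without that array. The lung form Cox4i2 and the muscle form Cox8b differed by 0.07 and 0.10, within their SEs of 0.12 and 0.13. The testis form Cox6b2 differed by -0.28 ± 0.50, with arrays spread from 6.15 (KO replicate 1) to 8.0 (WT replicate 3) in the order of the replicate numbers, both replicate 1 arrays lowest and both replicate 3 arrays highest, and by 0.14 without KO replicate 1. Cox7a2l, a supercomplex assembly factor, differed by 0.18 with all arrays and by -0.087 without WT replicate 1, which at 11.26 lay below the 11.87 to 12.15 of the others. Divided in this way, a choice made after the values were seen, 1 of the 6 restricted forms (Cox6a2, Cox7a1, Cox4i2, Cox8b, Cox6b2 and Cox8c) and 9 of the other 11 complex IV genes were lower in KO, with medians of 0.10 and -0.15. The restricted forms read low, with WT means from 5.43 (Cox8b) to 7.28 (Cox6b2). Of the other 11, Cox7c was the dimmest at 7.16 and Ndufa4 the next at 11.41. The SEs of the restricted forms were 0.12 (Cox4i2), 0.13 (Cox8b), 0.13 (Cox8c), 0.14 (Cox6a2), 0.34 (Cox7a1) and 0.50 (Cox6b2). The median SE over the set was 0.14. Differences near background are compressed by RMA, which an SE does not show. The count for complex IV as a whole depends on these forms. The difference between the restricted forms and the other 11 genes was not tested, and Cox6a2 was the 1 restricted form whose genotypes did not overlap.

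The ATP synthase had 15 of 17 genes lower in KO, with a median of -0.19, and in 4 of them the groups did not overlap, where 6.92% of all genes lay lower without overlap. Atp5o, the subunit that joins the catalytic head to the peripheral stalk, read 11.29, 11.49 and 11.46 across the KO arrays and 11.59, 11.83 and 11.68 across the WT arrays. Its difference was -0.28 ± 0.12 (SE), or 1.22-fold lower. Atp5k, a membrane subunit involved in dimer formation, measured 11.36, 11.38 and 11.34 in KO and 11.75, 11.65 and 11.45 in WT, a difference of -0.26. Atp5e, the epsilon subunit of the central stalk, differed by -0.21, with KO arrays from 11.65 to 11.75 and the lowest WT array at 11.83. In all 3 genes every KO array lay below every WT array. The catalytic beta and alpha subunit genes Atp5b and Atp5a1, named after their values were seen, differed by -0.27 ± 0.19 and -0.23 ± 0.15 with overlap, and by -0.094 and -0.10 without WT replicate 1. The genes for the ring subunit c, which share one mature protein, differed by -0.41 (Atp5g1), 0.04 (Atp5g2) and -0.19 (Atp5g3), with SEs of 0.27, 0.14 and 0.17.

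Atp5j, a subunit of the peripheral stalk, was singled out for its position, after its values were seen. In RefSeq of assembly GRCm38.p6 it is the third of the protein-coding genes that follow Mir155hg, the host gene of miR-155, after Mrpl39 and Jam2, and it is followed by Gabpa, which encodes the DNA-binding subunit of GABP. Atp5j read 11.52, 12.03 and 11.90 across the KO arrays and 12.18, 12.15 and 11.98 across the WT arrays, with KO replicate 2 above WT replicate 3 and a difference of -0.29 ± 0.16 (SE). Gabpa measured 9.26, 9.27 and 9.38 in KO and 9.6, 9.41 and 9.49 in WT, a difference of -0.20 ± 0.11 with no overlap (limma adjusted p = 0.631). The first of these neighbours, the mitochondrial ribosome gene Mrpl39, also picked after its values were seen, read 10.52, 9.94 and 10.36 in KO and 11.15, 10.77 and 10.88 in WT, a difference of -0.66 ± 0.19 without overlap (limma adjusted p = 0.631). Atp5j and Gabpa are transcribed away from each other from overlapping promoter windows, and the 30 bases below, from chr16:84835019-84835048 and chr16:84835046-84835075 (GRCm38.p6, read on the minus strand, that of Atp5j), are shown because they hold the ETS and YY1 letters that both genes share. Capitals mark the match, which begins at base -61 and -88 from an annotated Atp5j start.

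Atp5j ETS match: agctgagggacCCGGAAGcacttaccctcc
Atp5j YY1 match: aaagtgtaggaAAGATGGCggagtcttagc

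The same letters were searched on both strands in promoter windows of 300 bases (250 before to 50 after each start) from RefSeq, GRCm38.p6, which the table used here gives for 70 of the 84 genes and for 27025 genes in all. The NRF1 letters, GCGCA and GCGC with any 1 base between them, were found in 16 of the 70 (22.9%), against 5.19% of all genes. The ETS letters CCGGAAG, the site type that GABP binds, were in 18 (25.7%), against 9.93%, and the YY1 letters AAGATGGC in 9 (12.9%), against 3.19%. At least 1 of the 3, whose matches may overlap where their end letters are alike, was in 38 (54.3%), against 16.4%. The set's promoters were also richer in G and C, with a median of 58.6% against 52.8%, and its part in these shares was not tested. The 27025 genes were not limited to those on the array or bright enough to be tested, and no comparison within such genes was made. Examples are shown for genes with low values in KO, again with the match in capitals and each window read 5′ to 3′ on the strand of its gene. They lie at chr4:123718265-123718294 (minus strand), chr4:24897960-24897989 (plus), chr3:51408915-51408944 (minus) and chr4:140961266-140961295 (plus).

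Ndufs5 NRF1 match: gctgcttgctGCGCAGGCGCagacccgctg
Ndufaf4 NRF1 match: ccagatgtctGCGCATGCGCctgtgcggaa
Ndufc1 YY1 match: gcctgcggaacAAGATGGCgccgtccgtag
Sdhb ETS match: gctcggagaaaCCGGAAGcggccttccact

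The differences of genes with and without these letters were set side by side, with no test between them. Of the 16 genes with NRF1 letters 14 were lower in KO (median -0.19), as were 45 of the 54 without (median -0.19). With ETS letters 17 of 18 were lower (median -0.20), and without them 42 of 52 (median -0.19). With YY1 letters 8 of 9 were lower (median -0.24), and without them 51 of 61 (median -0.19). A match of letters is a description and not a shown binding site.

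Genes outside the name pattern that serve the same machinery were read from lists, and none passed the adjusted test. Of 14 genes for electron carriers and coenzyme Q 12 were lower in KO, with a median of -0.26 and 3 at an unadjusted limma p under 0.05, all lower, where 3.86% of all genes were lower at that p. Counted the same way, there were 0 of 26 assembly factors, 1 of 17 biogenesis regulators and 1 of 22 import genes. Cyc1, the haem protein cytochrome c1 of complex III, measured 10.41, 10.71 and 10.37 in KO and 11.26, 10.95 and 10.72 in WT, a difference of -0.48 ± 0.18 (SE) without overlap; KO replicate 2 nearly met WT replicate 3. Coq7, a hydroxylase of ubiquinone synthesis, differed by -0.41 ± 0.15, at 8.5, 8.63 and 8.48 in KO and 9.19, 8.92 and 8.73 in WT. Of 26 genes listed as assembly factors 22 were lower (median -0.23). Among them Coa3, a complex IV assembly factor, differed by -0.36. That list also holds Atpif1, the inhibitor of ATP hydrolysis by the synthase, which is not an assembly factor. The count and median were not recomputed without it. Atpif1 differed by -0.59 ± 0.28, with KO replicate 1 at 9.64 against 10.38 to 11.02 on the others.

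Of 17 tested genes listed as regulators of mitochondrial biogenesis 11 were lower (median -0.16). That list holds Mtf1, a metal-response factor that is not such a regulator, and without it 10 of 16 were lower (median -0.14). Tfb1m, a methyltransferase of mitochondrial ribosomal RNA, measured 7.56, 8.28 and 7.75 in KO and 8.87, 8.85 and 8.31 in WT, a difference of -0.81 ± 0.24 (SE; limma adjusted p = 0.631) without overlap. Tfam, which packages mitochondrial DNA and starts its transcription, differed by -0.37 ± 0.17. The factors whose letters were searched, chosen after their values were seen, differed by 0.05 ± 0.20 (Nrf1), 0.06 ± 0.12 (Yy1) and, for the partner subunit of GABP, -0.10 ± 0.11 (Gabpb1). Of 22 genes for import and the inner membrane 21 were lower (median -0.27). Slc25a4, an exchanger of ADP and ATP, measured 11.54, 11.49 and 11.38 in KO and 11.78, 11.80 and 11.84 in WT, a difference of -0.34 ± 0.11 (limma adjusted p = 0.631) without overlap. Timm8a1, an import chaperone, differed by -0.77 ± 0.34. The import and regulator scores overlapped between genotypes, KO replicate 2 (0.08 and 0.09, Mtf1 included) lying above WT replicate 3 (-0.14 and -0.10). The assembly factor scores did so as well (0.02 and -0.04, Atpif1 included).

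**Figure D4:**
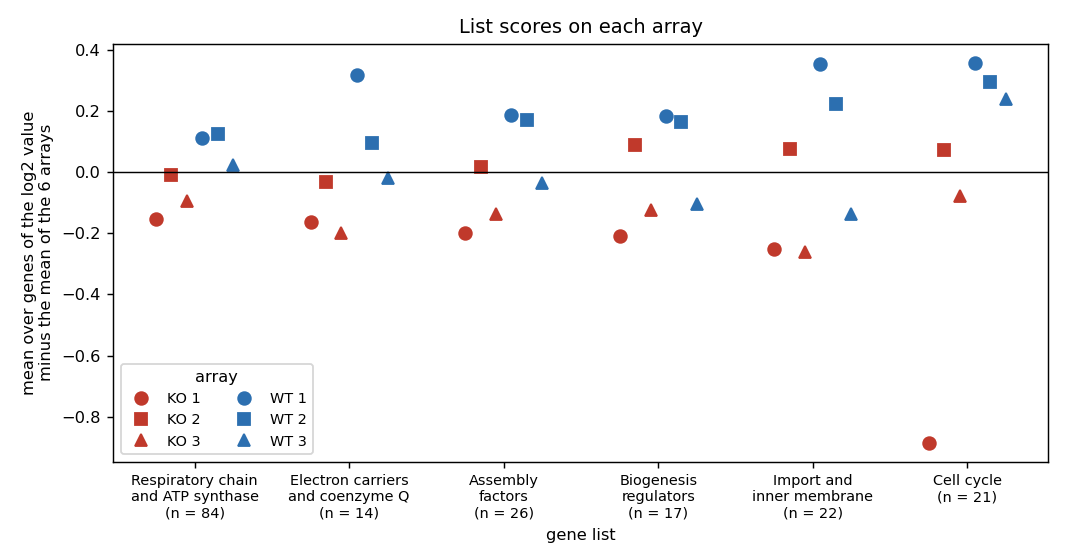
Score of each gene list on each array: the mean over its genes of the log2 value minus that gene's mean on the 6 arrays (circle, square and triangle for replicates 1, 2 and 3; KO red, WT blue). In the 84 respiratory chain and ATP synthase genes the KO scores of -0.15, -0.01 and -0.10 lie below the WT scores of 0.11, 0.12 and 0.02. In cell cycle genes the KO scores of -0.88, 0.07 and -0.08 also lie below the WT scores of 0.36, 0.30 and 0.24, with KO replicate 1 far below the rest.

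Several genes carried more than 1 probe set, which checks a value within the same arrays. Of 45 such genes, 38 had all their probe sets on the same side and 7 did not (Atp5c1, Cox5b, Cox8a, Ndufa12, Ndufab1, Ndufs4 and Sdhc). Of all 156 probe sets 128 were lower in KO, with a median of -0.17, and 2 averaged less than 4.72, the lowest mean among tested genes. The members are not independent of each other, as all come from the same 6 arrays. They lie on 19 chromosomes, with 2 genes on X.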

How the data were processed

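The submitters' processing notes name RMA and affy, without versions, as the tools with which the authors made the deposited log2 value of each probe set. The background step of RMA and shared distribution compress differences near background. No detection calls were used, and 3 arrays a genotype limit the precision. Probe sets were named from GEO's platform annotation (20393 with 1 symbol, 691 with several and 1606 with none). All 84 genes were found by gene number in RefSeq. The probe set with the highest mean stood for a gene, and the dimmest 25% of genes (3099) were left out. The genotypes were tested against each other by lmFit and eBayes (limma 3.58.1, R 4.3.3, two-sided, Benjamini-Hochberg over 9295 genes), with no block for the replicate number. The procedure was also run on simulated data in which each gene varied independently, so differences shared by an array were not covered.

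Named by rule were members at an unadjusted p under 0.05, the 3 smallest p per complex, the Sdh genes and tissue isoforms, and 2 genes per list outside the pattern; other genes were named after their values were seen. The members and lists were chosen with earlier results of these data known. Alternatives were the replicate block, each array left out, other normalizations, filters, probe set rules, variance models, array weights (statmod 1.5.0) and an adjusted p under 0.1. Leaving out both replicate 1 or both replicate 3 arrays, and Mtf1 out of 1 list, was added after the data were seen.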

Additional observations from a re-analysis of the deposited data

How the results depend on the processing

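Over all settings the median of the set kept its sign, between -0.23 (without WT replicate 3) and -0.14 (both replicate 1 arrays left out), and ranged from -0.23 to -0.15 with 1 array left out. The number lower was 127 of 155 when every probe set was tested. With all arrays no gene passed at an adjusted p of 0.1 either (0 genes). Of the settings run, array weights was the one in which genes passed the adjusted test at 0.05. It called 3581 genes (38.5%), 43 of the 84 among them (51.2%). In the set 40 were lower (47.6%, against 20.6% of all genes called lower) and 3 higher (3.57%). At an unadjusted p under 0.05 it gave 4712 genes (50.7%) and 55 of the 84 (65.5%). Those weights were 5.55 for KO replicate 3 and 5.05 for WT replicate 2 and 0.27 to 0.58 for the others, so that fit rested almost on 1 array a genotype. In it 20 named genes passed, and Cox6b2 (0.49) and Cox8a (0.029) changed sign. The unadjusted count in the set, 6 with all arrays, was 13 with the replicate block (15.5%, against 9.88% of all genes), 11 with no filter (13.1% against 6.91%), 3 with the filter at 50% (3.85% against 7.57%), 18 in the plain test without moderation (21.4% against 5.96%), 3 without both replicate 3 arrays (3.57% against 4.79%) and 0 without both replicate 1 arrays (against 2.98%), so whether the set lay above or below the share of all genes depended on the setting; over all genes, 691 with all arrays, it was 445 and 277 in the last pair and 1052 over all probe sets. With 1 array left out these counts ran from 0 to 20 and from 276 to 1540. The replicate block changed no adjusted call. Deviations of same-numbered arrays from their group means correlated at -0.04, 0.64 and 0.40, and KO replicate 1 correlated best with WT replicate 3 (0.39). The main fit used no block, as the series description gives the mice as separate. With 3 arrays a genotype, these correlations cannot show whether same-numbered arrays were matched in some other way. Same-numbered arrays did share their pattern of Xist and Y-linked transcripts, and within numbers 1, 2 and 3 the KO minus WT score of the set was -0.27, -0.14 and -0.12. Other changes of sign were Sdhc (-0.00198 with the mean of all probe sets, -0.019 without both replicate 3 arrays) and, without both replicate 1 arrays, Cox4i2 (-0.050), Cox7a1 (-0.17) and Cox7a2l (-0.036). With 1 array left out Cox4i1 ran from -0.14 to 0.015, Cox6b2 from -0.70 to 0.14, Cox7a1 from -0.015 to 0.56 and Cox7a2l from -0.087 to 0.36. Of 399 differences of named genes recomputed under settings other than 1 array left out, 372 kept their sign and call. Much of this was fixed in advance. The replicate block, the filters, the variance models, the test of every probe set and the looser threshold leave a gene's difference as it was. Outside array weights no gene was called in any setting. Causes were not tested.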

Other observations

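The name rule left out 8 probe sets that carry a matching symbol together with others, mostly of pseudogenes or near-identical copies, so their reading is uncertain. The probe sets shared by Ndufb4, Ndufb4b and Ndufb4c read 9.59, 10.27 and 9.81 across the KO arrays and 10.47, 10.56 and 9.99 across the WT arrays in the brighter case, a difference of -0.45, and differed by -0.42 in the other. The probe set shared by Ndufs6 and Ndufs6b differed by -0.43 and that of Ndufa11 and Ndufa11b by -0.29. The probe set shared by Ndufs5 and its pseudogene differed by -0.27, less than the -0.55 of the probe set for Ndufs5 alone. The probe set shared by Ndufab1 and its pseudogene differed by -0.40, that of Ndufb2 and Adck2 by -0.20 and that of Ndufa13 and Yjefn3 by 0.24.

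The chain also needs subunits encoded in mitochondrial DNA, of which ND5, a proton-pumping subunit of complex I, had 1 probe set under its own symbol. It read 11.45, 11.55 and 11.54 across the KO arrays and 11.82, 11.50 and 11.41 across the WT arrays. The groups overlapped, and the means were 11.51 ± 0.06 and 11.58 ± 0.21 (SD, n = 3).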
